A study of Mus musculus with 9 samples.

Results

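The genes of sarcoplasmic reticulum calcium cycling were described across 9 Affymetrix arrays of whole mouse hearts, 1 array per heart. The 10 genes were chosen by symbol, as a list of the pump, the channels, the storage proteins and the junctional proteins through which heart muscle cells move calcium, and each was found through the platform annotation among the 20239 named genes of the deposited table. All 10 had a single probe set, and all 10 passed a filter on low values, which kept the 12597 genes with at least 3 arrays above the 40th percentile of all values. Every heart came from a male C57BL/6 mouse that received an adeno-associated virus at 8 weeks of age, with a cargo expressed from a myosin light chain (MLC) promoter, a promoter of muscle cells. In the first group, TAC-HDAC4-NT, the virus carried amino acids 1 to 201 of histone deacetylase 4 (HDAC4) and the mice had transaortic constriction (TAC), a surgical narrowing of the aorta that loads the left ventricle with pressure. In the second group, TAC-Luc, the virus carried luciferase, a control protein, and the mice had TAC. In the third group, sham-Luc, the virus carried luciferase and the operation was a sham. Surgery followed the virus by 4 weeks, the hearts were taken another 4 weeks later, and each group had 3 hearts. No heart lacked the virus, and no sham heart received the HDAC4 fragment, so an effect of the fragment without load was not measured here.

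Each heartbeat is driven by calcium that leaves the sarcoplasmic reticulum through the ryanodine receptor RYR2 and is pumped back by the ATPase SERCA2a, which phospholamban restrains. Inside the reticulum calsequestrin and the histidine-rich calcium binding protein hold the calcium near the release site, where triadin ties them to the channel and junctophilin 2 keeps the reticulum close to the cell membrane. The sodium-calcium exchanger NCX1 removes from the cell the calcium that is not pumped back, and in failing hearts a lower SERCA2a and a higher NCX1 are well-known changes.

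The labelled tissue was borne out by 12 cardiomyocyte markers, whose mean log2 value lay between 12.86 and 12.97 on all 9 arrays. Arrays of a group correlated across genes at 0.986 to 0.996, which describes the arrays only, since genes are not independent replicates. TAC-Luc heart 1 correlated at 0.991 to 0.992 with the TAC-HDAC4-NT hearts and at 0.986 and 0.987 with TAC-Luc hearts 2 and 3, which correlated at 0.994 with each other. TAC-Luc hearts 2 and 3 thus stood apart from the other TAC hearts, and TAC-Luc heart 1 from the rest of its own group. Their sample codes open with 9 and that of TAC-Luc heart 1 with 8, a number whose meaning the labels do not give. No such number was shared between groups, so what it marks cannot be told apart from the groups. Values against sham-Luc without TAC-Luc hearts 2 and 3 are given where a call changed or a value moved by over 1.5 times. The design names 3 animals per group, and precision is limited by having so few arrays. The values are log2 values made with RMA, and 1 unit is a doubling of the array signal. In whole-heart RNA, fewer cells of a type and less RNA per cell cannot be told apart.

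**Figure D1:**
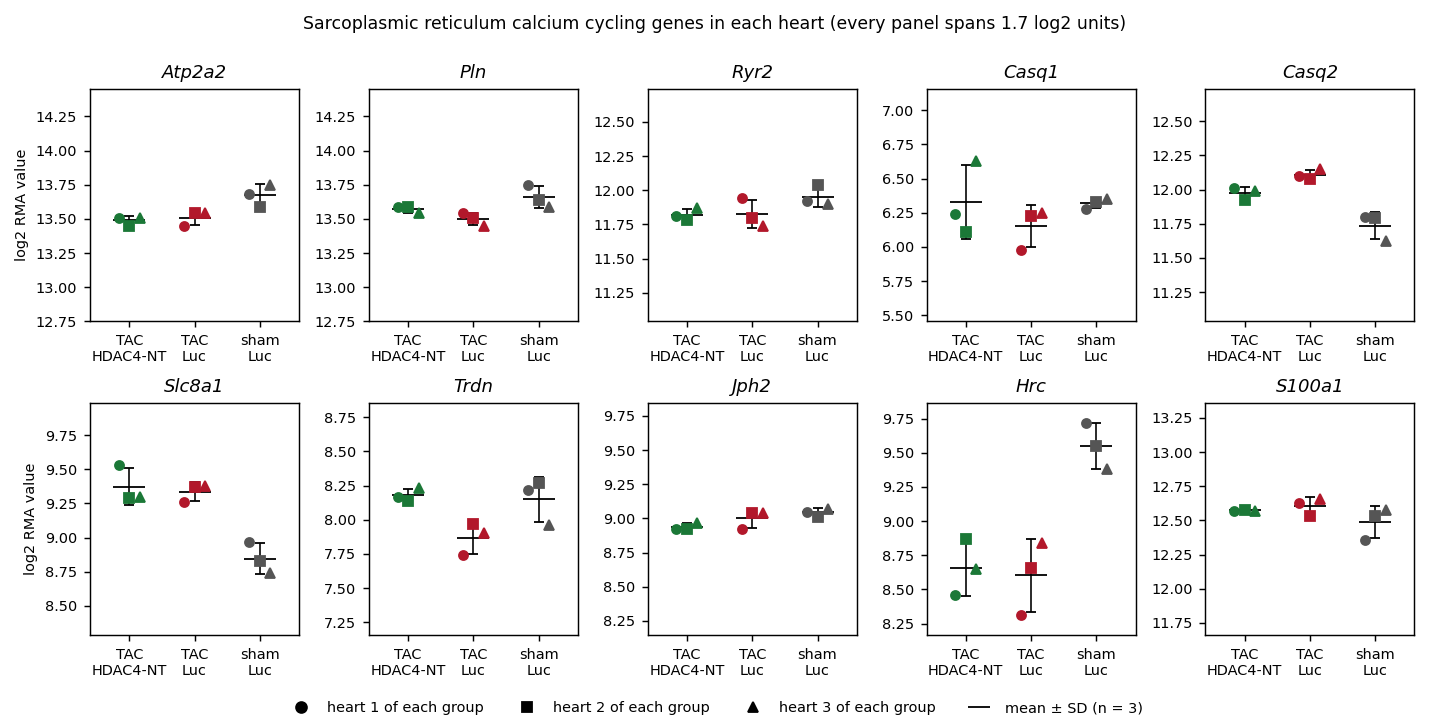
Log2 RMA value (y axis) of each of the 10 genes in each heart, with TAC-HDAC4-NT, TAC-Luc and sham-Luc hearts from left to right. Points are hearts, the dash and bar are the mean and SD of 3 hearts, and all panels cover the same span of log2 units. Hrc lay lower, and Casq2 and Slc8a1 higher, in all 6 TAC hearts than in the 3 sham hearts.

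The first comparison shows pressure load with the control virus. In TAC-Luc against sham-Luc hearts, Slc8a1 and Casq2 rose and Hrc and Trdn fell, 4 of the 10 genes at an adjusted p under 0.05 (limma, Benjamini-Hochberg over all genes tested), where 26.1% of all genes tested were called (11.2% higher and 14.9% lower). Over all genes this was 1405 higher and 1878 lower, and under cyclic loess scaling 1625 higher and 1521 lower. The other 6, Atp2a2, Pln, Ryr2, Casq1, Jph2 and S100a1, did not pass. The 10 genes had a median log2 fold change of -0.14, from -0.94 to 0.49, against a median of -0.01 over all genes tested. Their median size of change, whatever the sign, was 0.17, against 0.11 over all genes tested. Hearts of the 2 groups occupied separate ranges for 6 of the 10, against 37.4% of all genes, and 6 had an unadjusted p under 0.05, against 37.2%. With TAC-Luc hearts 2 and 3 both left out, the count was 2 (Hrc and Casq2). The remaining TAC-Luc heart is then assumed to vary like the others. The count was 6, with Atp2a2 and Pln added, under a robust prior with a trend and with the sample code number as a random block. Over all genes 3250 and 3988 were called under these 2 settings, against 3283. Since no number was shared between groups, that block cannot adjust the comparisons for what the number marks.

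The pump and its brake were near the top of the arrays' range. Atp2a2, which encodes SERCA2, stood at 13.51, 13.45 and 13.51 in TAC-HDAC4-NT hearts, at 13.45, 13.54 and 13.54 in TAC-Luc hearts and at 13.68, 13.59 and 13.75 in sham-Luc hearts. Every TAC heart was below every sham heart, and the ranges of both TAC groups overlapped. The log2 fold change in TAC-Luc against sham-Luc was -0.16 (SE 0.054, 95% confidence interval -0.29 to -0.04), an estimated 10.7% lower signal, and the adjusted p was 0.0535 in limma. It passed under 4 of the 20 other settings (adjusted p down to 0.027, without sham-Luc heart 2). Among the 4 was the sample code number as a random block (adjusted p 0.0315 in limma), which cannot adjust the comparison. Under cyclic loess scaling the change was -0.09 (adjusted p 0.296 in limma). In TAC-HDAC4-NT against sham-Luc Atp2a2 fell by 0.18 (SE 0.054, adjusted p 0.0377 in limma). This call was lost in 7 of the 9 fits that left out 1 array (adjusted p up to 0.118) and under cyclic loess scaling, where the change was -0.12 (adjusted p 0.164). It was also lost without TAC-Luc hearts 2 and 3, which enter through the shared spread (adjusted p 0.0529 in limma).

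Pln, which encodes phospholamban, the inhibitor of the pump, stood at 13.59, 13.59 and 13.54 in TAC-HDAC4-NT hearts, at 13.54, 13.51 and 13.45 in TAC-Luc hearts and at 13.75, 13.64 and 13.59 in sham-Luc hearts. TAC-Luc hearts were all below sham hearts, whereas TAC-HDAC4-NT hearts overlapped with them. The log2 fold change was -0.16 in TAC-Luc against sham-Luc (SE 0.054, adjusted p 0.0571) and -0.09 in TAC-HDAC4-NT against sham-Luc (SE 0.054, adjusted p 0.303), both in limma. In TAC-Luc it passed under 5 of the 20 other settings (adjusted p down to 0.0299, with a cardiomyocyte covariate, and 0.0407 without sham-Luc heart 3). Among the 5 was again the sample code number as a random block (adjusted p 0.0303 in limma). Under cyclic loess scaling Pln stood at -0.08 in TAC-Luc (adjusted p 0.276) and at -0.03 in TAC-HDAC4-NT (adjusted p 0.795 in limma). No more than 8 probe sets of any array were brighter than Atp2a2 or Pln, and the highest value on the arrays was 14.11. Once sorted, the 9 arrays held the same values, so a value of either gene gives its rank on the array. With 2 to 8 probe sets above them, their differences between hearts are shifts of a few ranks between fixed steps. The percent changes and SEs of these 2 genes describe such shifts. Whether the top of the scale compressed these differences was not tested.

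The balance of pump and brake was compared within arrays, as Atp2a2 minus Pln, where only changes of the difference carry meaning. This difference was -0.08 ± 0.05 in TAC-HDAC4-NT hearts, 0.01 ± 0.09 in TAC-Luc hearts and 0.01 ± 0.13 in sham-Luc hearts (SD, n = 3 each). Its change was 0 in TAC-Luc against sham-Luc (exact permutation p = 1) and -0.10 in TAC-HDAC4-NT against sham-Luc (exact permutation p = 0.4, 0.6 after adjustment over the 6 tests of within-array differences). TAC-HDAC4-NT against TAC-Luc stood at -0.09 (exact permutation p = 0.3, 0.6 adjusted). All these tests are two-sided, and 3 hearts against 3 cannot give an exact p below 0.1. Both genes had only 2 to 8 probe sets above them, so their difference, too, moves by a few ranks between fixed steps. These tests therefore cannot show whether the balance of pump and brake changed or stayed the same.

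Slc8a1 encodes NCX1, the exchanger that carries calcium out of the cell in return for sodium. It was one of the 2 genes that rose with load. Its log2 values were 9.53, 9.29 and 9.30 in TAC-HDAC4-NT hearts, 9.26, 9.37 and 9.38 in TAC-Luc hearts and 8.97, 8.83 and 8.74 in sham-Luc hearts. All TAC hearts were above all sham hearts, and the ranges of both TAC groups overlapped. Slc8a1 rose by 0.49 in TAC-Luc (SE 0.081, adjusted p 0.00231), an estimated 1.405-fold, and by 0.53 in TAC-HDAC4-NT (SE 0.081, adjusted p 0.00173), 1.44-fold, each against sham-Luc in limma. Without TAC-Luc hearts 2 and 3 the TAC-Luc change was 0.42 and did not pass (adjusted p 0.0559 in limma).

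The exchanger was also set against the pump within each array. All TAC hearts were above all sham hearts for Slc8a1 and below them for Atp2a2. The difference therefore had to separate loaded from unloaded hearts, with the smallest possible exact permutation p, and is no separate result. Slc8a1 minus Atp2a2 was -3.98, -4.17 and -4.21 in TAC-HDAC4-NT hearts, -4.19, -4.17 and -4.16 in TAC-Luc hearts and -4.71, -4.76 and -5.01 in sham-Luc hearts. The difference shifted towards the exchanger by 0.65 in TAC-Luc and by 0.71 in TAC-HDAC4-NT, each against sham-Luc. Both had an exact permutation p of 0.1, the smallest this design can give, and 0.3 after adjustment over the 6 tests. Between the TAC groups it differed by 0.06 (exact permutation p = 0.8, 0.96 adjusted).

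**Figure D2:**
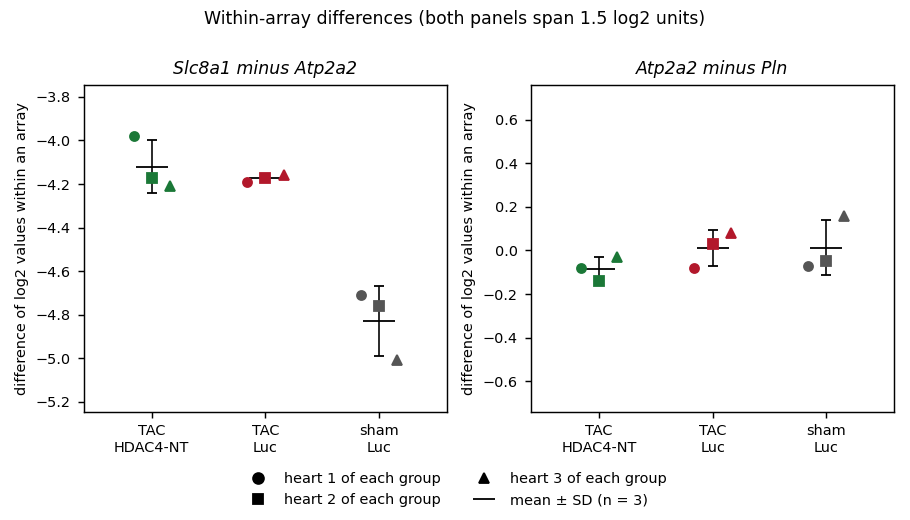
Difference of 2 log2 values within an array (y axis, log2 units) for Slc8a1 minus Atp2a2 on the left and Atp2a2 minus Pln on the right, with TAC-HDAC4-NT, TAC-Luc and sham-Luc hearts from left to right. Points are hearts and the dash and bar are the mean and SD of 3 hearts. All 6 TAC hearts lie above all 3 sham hearts on the left (-4.21 and higher against -4.71 and lower), and the groups overlap on the right. The separation on the left follows from the values of each gene. The panels cover the same span.

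The promoter of Slc8a1 is shown because the gene rose in both TAC groups and can be set beside those of Casq2 and Hrc, the others that passed in both. Promoter windows of 300 bases, 250 before to 50 after the start site, came from RefSeq on GRCm38.p6, and 8 of the 10 genes had one (Atp2a2 and Trdn did not). Capitals mark matches, on either strand, to the E-box CANNTG, to TATAAA, to the MEF2 consensus or to the CArG box. MEF2 factors are bound and repressed by HDAC4, and the CArG box binds serum response factor. Of 32851 promoter windows, 72.3% held the E-box, 13.6% TATAAA, 3.19% the MEF2 consensus and 1.63% the CArG box. The Slc8a1 window (chr17:81738338-81738637, minus strand) held 1 E-box. Such a match is a description of letters and was not tested for binding.
Slc8a1: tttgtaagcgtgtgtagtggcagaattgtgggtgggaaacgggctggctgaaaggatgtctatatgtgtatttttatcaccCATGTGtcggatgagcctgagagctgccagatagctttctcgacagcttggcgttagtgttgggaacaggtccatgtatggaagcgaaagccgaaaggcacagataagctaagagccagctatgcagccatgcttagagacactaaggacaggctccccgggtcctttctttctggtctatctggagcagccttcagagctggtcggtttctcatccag

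Of the luminal storage genes, Casq2 rose and Hrc fell. Casq2 encodes cardiac calsequestrin, the main calcium buffer of the reticulum in heart. It stood at 12.01, 11.92 and 11.99 in TAC-HDAC4-NT hearts, at 12.10, 12.08 and 12.15 in TAC-Luc hearts and at 11.80, 11.79 and 11.62 in sham-Luc hearts. The 3 groups did not overlap, with TAC-Luc highest and sham-Luc lowest. Casq2 rose by 0.37 in TAC-Luc (SE 0.059, adjusted p 0.00182), 1.29-fold, and by 0.24 in TAC-HDAC4-NT (SE 0.059, adjusted p 0.0184), 1.18-fold, each against sham-Luc in limma. The call in TAC-HDAC4-NT was lost without TAC-HDAC4-NT heart 1 or 3 (adjusted p 0.0753 and 0.062 in limma). The promoter window of Casq2 (chr3:102086165-102086464, plus strand) is printed because, of the 8 genes with a window, it alone held a match to the MEF2 consensus, at bases 182 to 191 of 300, beside 2 E-boxes.
Casq2: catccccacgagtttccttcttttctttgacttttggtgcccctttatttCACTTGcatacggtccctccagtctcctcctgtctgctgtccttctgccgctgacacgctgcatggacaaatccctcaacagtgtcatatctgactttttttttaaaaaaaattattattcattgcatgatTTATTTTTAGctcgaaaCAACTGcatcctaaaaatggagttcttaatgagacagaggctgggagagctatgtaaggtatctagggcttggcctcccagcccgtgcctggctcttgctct

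Hrc, which encodes the histidine-rich calcium binding protein that binds calcium in the lumen and contacts triadin, changed most of the 10. It stood at 8.46, 8.87 and 8.65 in TAC-HDAC4-NT hearts, at 8.31, 8.66 and 8.84 in TAC-Luc hearts and at 9.72, 9.55 and 9.38 in sham-Luc hearts. All 6 TAC hearts were below all sham hearts, while TAC-HDAC4-NT and TAC-Luc hearts overlapped. In TAC-Luc against sham-Luc Hrc was 1.925-fold lower, a log2 change of -0.94 (SE 0.148, adjusted p 0.00178 in limma). In TAC-HDAC4-NT against sham-Luc it was 1.855-fold lower, a log2 change of -0.89 (SE 0.148, adjusted p 0.00264 in limma). Both calls held under all 20 other settings at the same threshold, 9 of which left out 1 array each, with log2 fold changes from -1.24 to -0.80 in TAC-Luc and from -0.99 to -0.79 in TAC-HDAC4-NT. The Hrc window (chr7:45335019-45335318, plus strand) is shown as that of the gene that fell most, and it held 1 E-box near the start site.
Hrc: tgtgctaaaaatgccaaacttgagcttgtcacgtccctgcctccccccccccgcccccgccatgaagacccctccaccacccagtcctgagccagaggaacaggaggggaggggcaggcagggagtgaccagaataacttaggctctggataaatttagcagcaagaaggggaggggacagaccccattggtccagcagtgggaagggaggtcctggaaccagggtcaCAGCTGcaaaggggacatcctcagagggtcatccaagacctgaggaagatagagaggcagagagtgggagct

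Casq1, the calsequestrin of fast skeletal muscle, had a low signal near the filter's value of 5.66. It stood at 6.24, 6.11 and 6.63 in TAC-HDAC4-NT hearts, at 5.98, 6.23 and 6.25 in TAC-Luc hearts and at 6.28, 6.33 and 6.35 in sham-Luc hearts. TAC-HDAC4-NT heart 3 was the highest of the 9, and the means differed by no more than 0.17 in any comparison (SE 0.125, adjusted p 0.385 to 0.979 in limma). In TAC-Luc against sham-Luc Casq1 was -0.34 without TAC-Luc hearts 2 and 3 (adjusted p 0.245) and -0.08 without TAC-Luc heart 1 (adjusted p 0.724 in limma). Of 12 skeletal muscle markers, 5 did not pass the filter (Myh1, Myh2, Mylpf, Pvalb and Ryr1). The summed linear signal of all 12 was 627 to 635 in TAC-HDAC4-NT, 632 to 658 in TAC-Luc and 649 to 669 in sham-Luc hearts. The mean log2 value of the 12 was 5.69 to 5.77, near the filter's value. Cacna1s, a calcium channel subunit of skeletal muscle, was the 1 marker called, lower by 0.32 in TAC-Luc and by 0.36 in TAC-HDAC4-NT against sham-Luc. Its means were 5.64 in TAC-HDAC4-NT, 5.68 in TAC-Luc and 6.00 in sham-Luc hearts, so both TAC groups lay at the filter's value. The part of such cells in the Casq1 values was not tested.

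At the release site the channel differed little. Ryr2, the calcium release channel of heart muscle, stood at 11.81, 11.78 and 11.87 in TAC-HDAC4-NT hearts, at 11.94, 11.80 and 11.74 in TAC-Luc hearts and at 11.92, 12.04 and 11.90 in sham-Luc hearts. TAC-Luc heart 1 lay within the sham range and the other TAC hearts below it. The log2 fold change was -0.13 in TAC-Luc (95% confidence interval -0.27 to 0.02, adjusted p 0.179) and -0.14 in TAC-HDAC4-NT (-0.28 to 0.01, adjusted p 0.17), each against sham-Luc in limma. Without TAC-Luc hearts 2 and 3 the TAC-Luc value was -0.02 (adjusted p 0.917). Under cyclic loess scaling the values were -0.07 in TAC-Luc and -0.09 in TAC-HDAC4-NT.

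Trdn encodes triadin, which anchors calsequestrin to the release channel. It was the 1 gene of the 10 called in TAC-Luc whose TAC-HDAC4-NT mean lay at the sham level. It stood at 8.17, 8.14 and 8.23 in TAC-HDAC4-NT hearts, at 7.74, 7.97 and 7.90 in TAC-Luc hearts and at 8.22, 8.27 and 7.96 in sham-Luc hearts. TAC-Luc hearts were all below TAC-HDAC4-NT hearts and overlapped with sham heart 3. Trdn fell by 0.28 in TAC-Luc against sham-Luc (SE 0.089, adjusted p 0.0445 in limma). That call was lost in 7 of the 9 fits that left out 1 array (adjusted p up to 0.134), without TAC-Luc hearts 2 and 3 (-0.42, adjusted p 0.0555), and under 14 of the 20 other settings in all. In TAC-HDAC4-NT against sham-Luc it stood at 0.03 (95% confidence interval -0.18 to 0.23, adjusted p 0.882 in limma).

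Jph2 encodes junctophilin 2, which bridges the cell membrane and the reticulum. It stood at 8.92, 8.92 and 8.97 in TAC-HDAC4-NT hearts, at 8.92, 9.04 and 9.04 in TAC-Luc hearts and at 9.05, 9.01 and 9.07 in sham-Luc hearts. TAC-HDAC4-NT hearts were all below sham hearts, by a log2 fold change of -0.11 (95% confidence interval -0.22 to 0.01, adjusted p 0.178 in limma). TAC-Luc stood at -0.05 against sham-Luc (-0.16 to 0.07, adjusted p 0.585 in limma), at -0.13 without TAC-Luc hearts 2 and 3 (adjusted p 0.269) and at -0.01 under cyclic loess scaling.

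S100a1 encodes a calcium sensor that enhances the activity of the pump and the release channel. It stood at 12.57, 12.58 and 12.57 in TAC-HDAC4-NT hearts, at 12.63, 12.53 and 12.66 in TAC-Luc hearts and at 12.36, 12.53 and 12.58 in sham-Luc hearts. The groups overlapped in every pair. S100a1 stood at 0.12 in TAC-Luc (95% confidence interval -0.03 to 0.26, adjusted p 0.215) and at 0.08 in TAC-HDAC4-NT (-0.06 to 0.22, adjusted p 0.434), each against sham-Luc in limma. Under cyclic loess scaling these were 0.18 (adjusted p 0.07) and 0.13 (adjusted p 0.201).

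**Figure D3:**
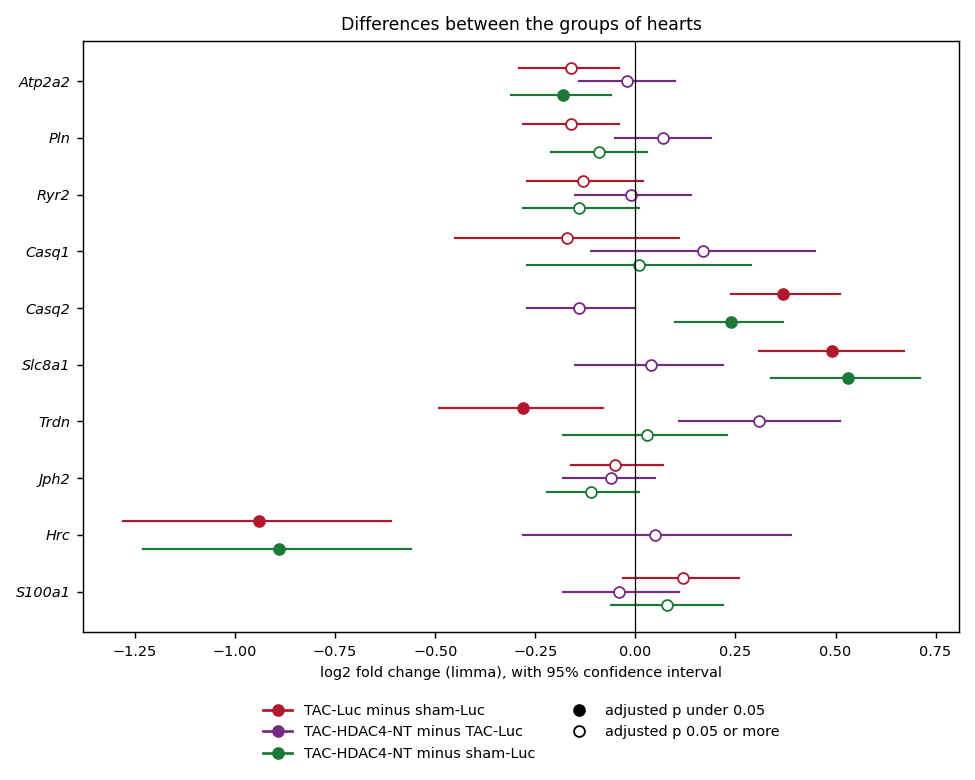
Log2 fold change (x axis) of each of the 10 genes (y axis) with its 95% confidence interval from limma, for TAC-Luc minus sham-Luc, TAC-HDAC4-NT minus TAC-Luc and TAC-HDAC4-NT minus sham-Luc from top to bottom within each gene. Filled points passed an adjusted p of 0.05. Hrc lies at -0.94 and -0.89 against sham-Luc and at 0.05 between the TAC groups, and no filled point belongs to the comparison of the TAC groups.

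The HDAC4 fragment was compared with luciferase under the same load, which asks whether the fragment changed these genes in the loaded heart. None of the 10 genes passed in limma, where 0.254% of all genes tested were called, and 2 of the 10, Trdn and Casq2, had an unadjusted p under 0.05, against 14.3% of all genes. The same 2 were the genes whose groups did not overlap, against 20.4% of all genes. Over all genes 32 were called, and 1 to 697 with 1 array left out, the 697 without TAC-Luc heart 1. None of the 10 genes was called in any of these fits. Trdn was higher in all 3 TAC-HDAC4-NT hearts, by 0.31 (95% confidence interval 0.11 to 0.51, unadjusted p 0.00687, adjusted p 0.157 in limma). Casq2 was lower in all 3 TAC-HDAC4-NT hearts, by a log2 fold change of -0.14 (SE 0.059, unadjusted p 0.0436, adjusted p 0.329 in limma).

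Trdn and Casq2 are described further only because their TAC groups did not overlap, at a share close to that of all genes. For both genes the TAC-HDAC4-NT mean lay nearer to the sham mean than the TAC-Luc mean did. The same order of means held for Pln, Casq1, Hrc and S100a1, and the opposite for Atp2a2, Ryr2, Slc8a1 and Jph2. Lying nearer to the sham mean thus did not by itself set Trdn and Casq2 apart. Trdn averaged 8.18 ± 0.05 in TAC-HDAC4-NT, 7.87 ± 0.12 in TAC-Luc and 8.15 ± 0.17 in sham-Luc hearts (SD, n = 3 each). Casq2 averaged 11.97 ± 0.05 in TAC-HDAC4-NT, 12.11 ± 0.03 in TAC-Luc and 11.74 ± 0.10 in sham-Luc hearts (SD, n = 3 each). The comparisons with sham and with TAC-Luc share the TAC-Luc hearts, so opposite signs in them are not separate results.

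For the other 8 genes the intervals between the TAC groups bound the difference. The 95% confidence interval of TAC-HDAC4-NT minus TAC-Luc ran from -0.28 to 0.39 for Hrc and from -0.15 to 0.22 for Slc8a1. It ran from -0.14 to 0.10 for Atp2a2, from -0.05 to 0.19 for Pln and from -0.15 to 0.14 for Ryr2. Jph2 had an interval of -0.18 to 0.05, S100a1 one of -0.18 to 0.11 and Casq1 one of -0.11 to 0.45. Missing the threshold does not show that the groups were alike, and these intervals give the sizes of array signal that the data allow. Those of Atp2a2 and Pln describe shifts of a few ranks near the top of the arrays. Whether larger differences were compressed there was not tested.

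The third comparison, TAC-HDAC4-NT against sham-Luc, had 4 of the 10 genes called (22.8% of all genes tested were), with Slc8a1 and Casq2 higher and Hrc and Atp2a2 lower. Slc8a1, Casq2 and Hrc were thus called against sham in both TAC groups, which share the 3 sham hearts. The 10 genes had a median log2 fold change of -0.04, from -0.89 to 0.53, against a median of -0.01 over all genes tested. Separate ranges were seen for 6 of the 10, against 39.7% of all genes, and 4 had an unadjusted p under 0.05, against 33.8%. The count was 3 under cyclic loess scaling, and 2 without TAC-HDAC4-NT heart 1 or heart 3.

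**Figure D4:**
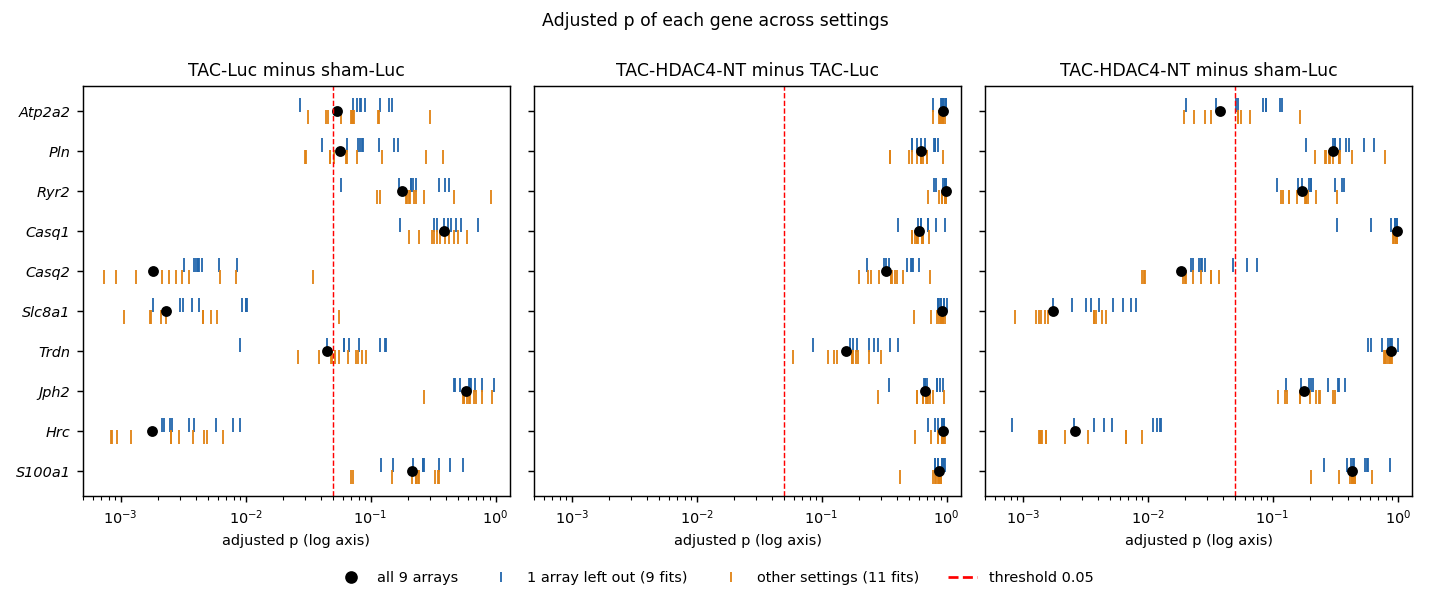
Adjusted p (x axis, log scale) of each of the 10 genes (y axis) in the 3 comparisons. Black points are the fit of all 9 arrays, blue ticks the 9 fits that left out 1 array each, orange ticks the other settings, and the dashed line the threshold of 0.05. Hrc stays left of the line in both comparisons with sham-Luc. Ticks lie on both sides of it for Atp2a2 in both, for Trdn, Pln and Slc8a1 in TAC-Luc and for Casq2 in TAC-HDAC4-NT, and in the comparison of the TAC groups every tick is right of it.

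Markers of other cells moved with load beside these genes, where 26.1% of all genes were called in TAC-Luc and 22.8% in TAC-HDAC4-NT against sham-Luc. Of 8 fibroblast markers 5 rose (Dcn, Lum, Col1a1, Col1a2 and Col3a1) and none fell in TAC-Luc and in TAC-HDAC4-NT against sham-Luc. Their medians on the log2 scale were 0.73 and 0.83. Pdgfra, Tcf21 and Dpt were not called in either (0.13, 0.03 and 0.29 in TAC-Luc). The summed linear signal of the 8 was 8815 to 9199 in TAC-HDAC4-NT, 8070 to 8925 in TAC-Luc and 5672 to 6251 in sham-Luc hearts. Dcn, the brightest with group means of 12.05 to 12.53, weighs most in this sum. Of 6 macrophage markers 3 rose in TAC-Luc and 4 in TAC-HDAC4-NT, at 1805 to 2081, 1753 to 2459 and 1405 to 1436 in the same order of groups. The 12 cardiomyocyte markers had 2 higher and 2 lower in TAC-Luc, and 2 and 1 in TAC-HDAC4-NT, at 101300 to 101600 in TAC-HDAC4-NT, 99140 to 100700 in TAC-Luc and 95230 to 103900 in sham-Luc hearts. Of 6 endothelial markers 1 rose and 2 fell in TAC-Luc and 1 rose in TAC-HDAC4-NT, at 5299 to 5515, 4570 to 4974 and 4464 to 4963 in that order, and of 6 smooth muscle and pericyte markers 1 rose in TAC-Luc and 2 rose and 1 fell in TAC-HDAC4-NT, at 5645 to 6148, 4743 to 5453 and 5080 to 5610. None of 4 atrial markers tested passed, with 344 to 954, 362 to 2047 and 538 to 1394 over 5 markers. With the cardiomyocyte mean as a covariate, chosen after seeing the data, Casq2, Slc8a1 and Hrc were called against sham-Luc in both TAC groups, and Pln (-0.17, adjusted p 0.0299) and Trdn (adjusted p 0.0485 in limma) in TAC-Luc. The 12 markers lie near the top of the arrays, and Actc1 stood at the highest value, 14.11, in both TAC groups (SD 0). Whether their mean follows the share of cardiomyocytes is therefore unknown, and no conclusion on that share is drawn from this covariate. The part of the other cells in the results was not tested.

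For the genes called in TAC-Luc, the 3 genes of nearest pattern were taken from 12075 tested genes, predicted models left out, by the root mean squared difference of centred log2 values over the 9 arrays. For Hrc they were Klhdc1, Gstk1 and Yipf7, at 0.109 to 0.117, where the spread of Hrc itself about its mean was 0.468. For Slc8a1 they were Dusp3, Erbin and Bmp1, at 0.063 to 0.077, against 0.256 for Slc8a1. For Casq2 they were Itga11, Arhgef7 and Rbm7, at 0.046 to 0.053, against 0.163. For Trdn they were Ei24, Nfib and Zfp945, at 0.071 to 0.079, against 0.172. These genes were chosen for a like pattern, so a like fold change is no separate result. In TAC-Luc against sham-Luc the neighbours of Hrc stood at -1.03 to -0.76, those of Slc8a1 at 0.46 to 0.52, those of Casq2 at 0.32 to 0.35 and those of Trdn at -0.26 to -0.21. Of the neighbours of Trdn, Ei24 and Zfp945 were not called.

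The rest of the calcium cycling machinery was covered by 72 other genes in 6 lists, of which 63 were measured and 57 passed the filter. In TAC-Luc against sham-Luc 4 rose and 12 fell, 16 of 57, against 26.1% of all genes. In TAC-HDAC4-NT against sham-Luc 9 rose and 10 fell, 19 of 57, against 22.8%. Between the TAC groups none of the 57 passed in limma and 8 had an unadjusted p under 0.05, against 14.3% of all genes. In the 6 lists that follow, counts stand against 11.2% of all genes higher and 14.9% lower in TAC-Luc, and 10.5% and 12.3% in TAC-HDAC4-NT. The median log2 fold change of the 57 genes was -0.07 in TAC-Luc against sham-Luc, 0.02 between the TAC groups and 0 in TAC-HDAC4-NT against sham-Luc.

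Of 4 genes of calcium uptake and its regulators, 1 rose in each TAC group. Sri encodes sorcin, which binds the release channel and damps its opening. It stood at 9.57, 9.54 and 9.57 in TAC-HDAC4-NT hearts, at 9.71, 9.62 and 9.58 in TAC-Luc hearts and at 9.18, 9.33 and 9.14 in sham-Luc hearts. All TAC hearts were above all sham hearts. Sri rose by 0.42 in TAC-Luc (adjusted p 0.00111) and by 0.35 in TAC-HDAC4-NT (adjusted p 0.0035), each against sham-Luc in limma. Atp2a3, another member of the SERCA family, stayed near the filter's value, at -0.07 and 0 in the same comparisons.

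Of 8 genes of release channels and the proteins bound to them, 1 rose and 1 fell in TAC-Luc, and 2 rose and 1 fell in TAC-HDAC4-NT, against sham-Luc. Fkbp1a, an immunophilin that binds ryanodine receptors, rose by 0.21 in each. Tmem38b, a cation channel of the reticulum that balances charge, fell by 0.19 in TAC-Luc and by 0.18 in TAC-HDAC4-NT, with group means of 6.52 to 6.72. Its brighter relative Tmem38a, with group means of 11.16 to 11.31, stood at -0.15 in each and was not called (adjusted p 0.0725 and 0.093 in limma). Calm2, one of the genes for calmodulin, rose by 0.61 in TAC-HDAC4-NT (adjusted p 0.0186) and stood at 0.44 in TAC-Luc (adjusted p 0.0602 in limma). Itpr3, an inositol trisphosphate receptor, stood at 0.10 between the TAC groups (adjusted p 0.382 in limma).

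Of 6 luminal calcium binding genes, 1 fell in each TAC group. Canx, which encodes the membrane chaperone calnexin, fell by 0.23 in TAC-Luc against sham-Luc (adjusted p 0.0408 in limma) and stood at -0.15 in TAC-HDAC4-NT. Calr, which encodes calreticulin, a luminal calcium buffer and chaperone, fell by 0.25 in TAC-HDAC4-NT (adjusted p 0.0273 in limma) and stood at -0.19 in TAC-Luc. Srl, which encodes sarcalumenin, stood at 0.03 in TAC-Luc and 0.09 in TAC-HDAC4-NT.

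Of 8 junctional membrane and T-tubule genes, 3 fell in TAC-Luc, and 2 rose and 2 fell in TAC-HDAC4-NT, against sham-Luc. Jph1, a junctophilin best known from skeletal muscle, stood at 6.52, 6.55 and 6.64 in TAC-HDAC4-NT hearts, at 6.46, 6.89 and 6.55 in TAC-Luc hearts and at 7.20, 7.05 and 7.08 in sham-Luc hearts. All TAC hearts were below all sham hearts. Jph1 fell by 0.48 in TAC-Luc (adjusted p 0.00843) and by 0.54 in TAC-HDAC4-NT (adjusted p 0.005), each against sham-Luc in limma. Cmya5, which encodes myospryn, a protein that tethers the reticulum at the Z-line, fell by 0.37 and 0.43 in the same comparisons. Speg, a kinase of the junctional membrane, fell by 0.22 in TAC-Luc and stood at -0.13 in TAC-HDAC4-NT.

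Dysf and Tcap passed in TAC-HDAC4-NT against sham-Luc, and the difference between the TAC groups did not pass for either. Dysf encodes dysferlin, a protein of membrane repair and T-tubules. It stood at 8.95, 8.99 and 9.06 in TAC-HDAC4-NT hearts, at 8.63, 8.66 and 8.75 in TAC-Luc hearts and at 8.66, 8.70 and 8.52 in sham-Luc hearts. TAC-HDAC4-NT hearts were above all others, and TAC-Luc and sham-Luc hearts overlapped. Dysf rose by 0.37 in TAC-HDAC4-NT against sham-Luc (adjusted p 0.00267) and stood at 0.32 against TAC-Luc (adjusted p 0.0637), both in limma. Tcap, which encodes telethonin of the Z-disc, rose by 0.70 in TAC-HDAC4-NT against sham-Luc and stood at 0.34 against TAC-Luc (adjusted p 0.405 in limma).

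Of 11 genes of sarcolemmal calcium and sodium transport, 1 rose and 1 fell in TAC-Luc and 2 rose in TAC-HDAC4-NT, against sham-Luc. Atp2b4, a calcium pump of the cell membrane, rose by 0.30 and 0.23. Fxyd1, which encodes phospholemman, the regulator of the sodium pump, fell by 0.18 in TAC-Luc and stood at -0.16 in TAC-HDAC4-NT (adjusted p 0.0522 in limma). Atp1b1, the beta subunit of the sodium pump, rose by 0.30 in TAC-HDAC4-NT and stood at 0.12 in TAC-Luc. Rrad, a small GTPase that restrains the L-type calcium channel, stood at 0.57 in TAC-HDAC4-NT against TAC-Luc (adjusted p 0.153), and Slc8b1, the mitochondrial sodium-calcium exchanger, at 0.27 (adjusted p 0.162), both in limma.

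Of 20 kinases, phosphatases, anchors and phosphodiesterases of calcium cycling, 1 rose and 6 fell in TAC-Luc, and 2 rose and 6 fell in TAC-HDAC4-NT, against sham-Luc. Akap7, an anchor that holds protein kinase A at phospholamban, stood at 7.53, 7.55 and 7.63 in TAC-HDAC4-NT hearts, at 7.42, 7.32 and 7.49 in TAC-Luc hearts and at 8.10, 7.93 and 7.90 in sham-Luc hearts. All TAC hearts were below all sham hearts. Akap7 fell by 0.57 in TAC-Luc (adjusted p 0.00044) and by 0.41 in TAC-HDAC4-NT (adjusted p 0.00275), each against sham-Luc in limma. Prkar1a, a regulatory subunit of protein kinase A, rose by 0.39 and 0.35. Camk2a and Camk2b, genes of calmodulin-dependent kinase II, fell by 0.43 and 0.32 in TAC-Luc and by 0.44 and 0.32 in TAC-HDAC4-NT. Their group means were low, from 6.40 to 6.91. Camk2d, the brighter gene of the same kinase with group means of 9.94 to 10.08, was not called. It stood at -0.14 in TAC-Luc (adjusted p 0.243) and at -0.06 in TAC-HDAC4-NT (adjusted p 0.642), each against sham-Luc in limma.

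Akap6 encodes the anchor mAKAP of the nuclear envelope and the reticulum. It stood at 9.50, 9.47 and 9.53 in TAC-HDAC4-NT hearts, at 9.07, 9.21 and 9.12 in TAC-Luc hearts and at 9.21, 9.37 and 9.08 in sham-Luc hearts. TAC-HDAC4-NT hearts were above all others. Akap6 rose by 0.28 in TAC-HDAC4-NT against sham-Luc (adjusted p 0.0242) and stood at 0.37 against TAC-Luc (SE 0.074, adjusted p 0.0646), both in limma. Camk2g stood at 0.26 in TAC-HDAC4-NT against TAC-Luc (adjusted p 0.111 in limma), with the groups not overlapping.

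**Figure D5:**
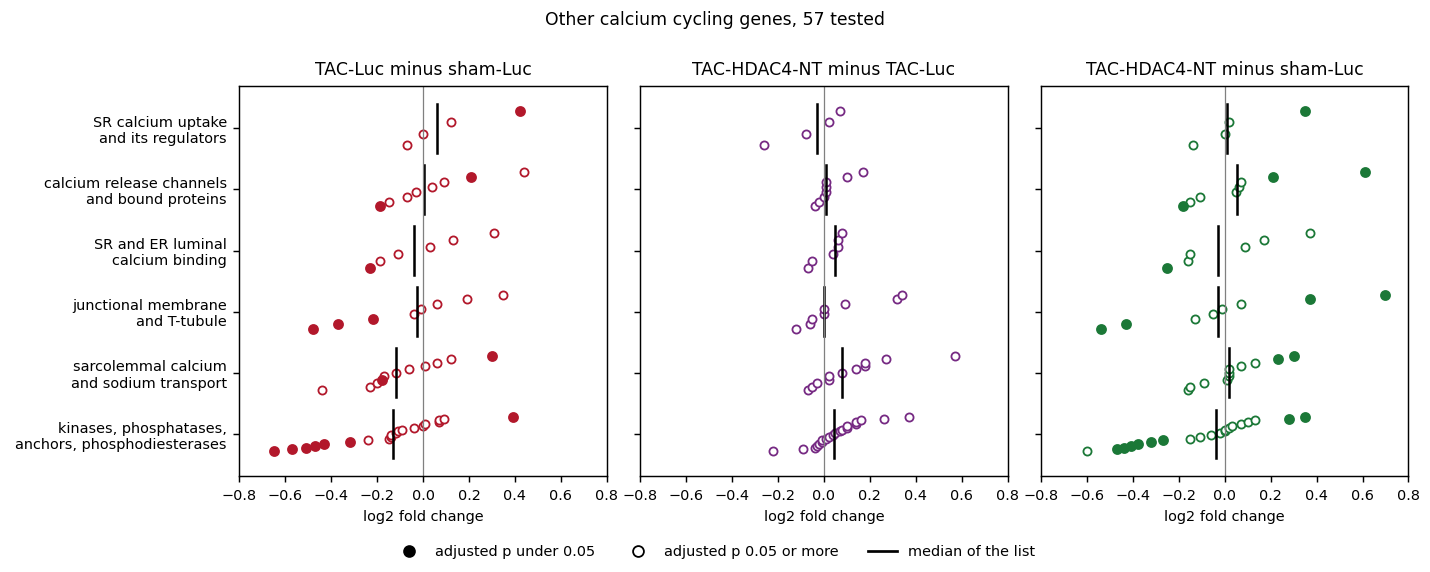
Log2 fold change (x axis) of the 57 other calcium cycling genes tested, in 6 lists (y axis), for the 3 comparisons. Each point is a gene, filled where it passed an adjusted p of 0.05, and the black line is the median of the list. The kinase, phosphatase, anchor and phosphodiesterase list has 6 filled points below 0 in each comparison with sham-Luc, and the comparison of the TAC groups has no filled point.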

How the data were processed

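Biotin-labelled cRNA of whole hearts went onto Affymetrix arrays, per the labels' protocols. RMA made the log2 values that the authors deposited, per the submitters' processing notes. Neither its version nor the definitions of the probe sets nor a build were given in the sources used here. Once sorted, the 9 arrays held the same values, which is what quantile normalization does. Of 21225 probe sets, 20239 had 1 gene symbol and 986 were not listed. All 20239 matched RefSeq genes of GRCm38.p6 by gene ID, used for names.

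The 3 groups came from the sample titles. One linear model over all 9 arrays was fitted to 12597 genes in R 4.3.3 with limma 3.58.1 (eBayes moderation, 6 residual and 3.23 prior degrees of freedom), with Benjamini-Hochberg adjustment over all genes and a threshold of 0.05. Scripts were tested on simulated data. Figures were drawn with matplotlib 3.10.9.

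The genes and lists were chosen with earlier results of these data known. All 10 genes were named, and of each of the 6 lists up to 4 called genes with the smallest p in each comparison, or up to 2 where none was called. Tmem38a and Camk2d were also named, as brighter relatives of genes named by that rule. Alternatives were no filter, a 60th percentile filter, cyclic loess scaling, array weights, a robust prior with a trend, only the 6 arrays of a comparison, a block for the replicate number or for the number that opens the sample code, a covariate from the mean of 4 atrial genes, thresholds of 0.01 and 0.1, and leaving out each array. Leaving out TAC-Luc hearts 2 and 3 and a cardiomyocyte covariate were added after seeing the data.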

Additional observations from a re-analysis of the deposited data

How the results depend on the processing

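The calls of Hrc against sham-Luc held under all 20 other settings at the same threshold in both TAC groups, and so did Casq2 in TAC-Luc and Slc8a1 in TAC-HDAC4-NT; Slc8a1 in TAC-Luc was lost under 1 and Casq2 in TAC-HDAC4-NT under 2. Of the 10 genes, the number called in TAC-Luc against sham-Luc was 3 to 5 with 1 array left out and 2 without TAC-Luc hearts 2 and 3. It was 6 with the robust and trended prior (3250 of all genes called, against 3283 in the main fit), with the sample code number as a random block (3988) and at a threshold of 0.1 (4236). It was 5 with no filter and with the cardiomyocyte covariate, and 3 or 4 under the others. It was 2 to 4 with 1 array left out, and 2 at a threshold of 0.01, in TAC-HDAC4-NT against sham-Luc, and 0 under every setting run between the TAC groups. The cause of these changes was not tested.

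Over all genes, TAC-Luc against sham-Luc had 3283 calls, 1748 at 0.01 and 1926 without TAC-Luc hearts 2 and 3 (2435 to 3230 with 1 array left out). TAC-HDAC4-NT against sham-Luc had 2872, and 1579 at 0.01 (1921 to 3161 with 1 array left out). TAC-HDAC4-NT against TAC-Luc had 32, with 10 under no filter, 103 under the stricter filter, 75 with the trended prior, 827 with array weights, 0 with only the 6 arrays (limma, 1868 at an unadjusted p under 0.05), 177 with the sample code as a random block (estimated correlation -0.113), 7 with the atrial covariate, 297 at 0.1 and 3 at 0.01. With 1 array left out it had 1 to 697, the 697 without TAC-Luc heart 1 and no more than 16 without any other. It had 10 without TAC-Luc hearts 2 and 3 and 14 with the cardiomyocyte covariate.

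Same-numbered hearts did not deviate together (correlations of their deviations from -0.12 to 0.2, over 0.1 in 2 of 9 pairs), so the numbers were not read as pairs. With the replicate block 106 genes passed between the TAC groups, and Trdn in TAC-Luc (adjusted p 0.0664) and Atp2a2 in TAC-HDAC4-NT (adjusted p 0.0528 in limma) lost their calls against sham-Luc.

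Only uncalled values changed sign. Between the TAC groups Atp2a2 was 0.04 and Jph2 0.02 without TAC-Luc hearts 2 and 3, and Ryr2 was 0.02 and Hrc -0.06 with array weights. With 1 array left out, Ryr2 ran from -0.05 to 0.05, Hrc from -0.09 to 0.17 and Slc8a1 from -0.04 to 0.08. Against sham-Luc in TAC-HDAC4-NT, Casq1 was -0.01 with array weights and ran from -0.15 to 0.11 with 1 array left out, and Trdn from -0.07 to 0.09. The within-array difference Atp2a2 minus Pln in TAC-Luc against sham-Luc ran from -0.05 to 0.07, and Slc8a1 minus Atp2a2 between the TAC groups from -0.01 to 0.10.

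Cyclic loess scaling moved the median of all genes by no more than 0.02 and reversed none of the 10 genes, but 51.7% of the calls in TAC-Luc against sham-Luc were then higher, against 42.8% as deposited. It also brought Atp2a2 to -0.09, Pln to -0.08 and Ryr2 to -0.07 in that comparison. The values carry no detection p, so signal over background is unknown, and Casq1 lay nearest to the filter value.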
